A study of Homo sapiens with 6 samples.

Results

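The epidermal growth factor receptor (EGFR) family was examined through 8 genes: the receptors *EGFR*, *ERBB2* and *ERBB3*, the ligands *AREG*, *EREG*, *HBEGF* and *TGFA*, and the receptor inhibitor *ERRFI1*. They were chosen by gene symbol from the 12499 genes of the deposited table, and all 8 had a row and were among the 12462 genes tested. The measurements are RNA-seq read counts from HaCaT, an established line of spontaneously immortalized human skin keratinocytes. The libraries fall into 2 groups of 3, labeled LV-NC and LV-*ATF7*. Cells of the LV-*ATF7* group were infected for 48 hours with a lentivirus made from the pLVX-IRES-Puro vector carrying the coding sequence of *ATF7*, a transcription factor of the ATF/CREB family, and cells of the LV-NC group were infected for the same time with a negative control lentivirus. All cells were then kept in high-glucose (HG) medium for 24 hours, so no library in this comparison came from normal glucose. The sources used here do not say whether the 3 replicates of a group were separate cultures, and p-values therefore measure only the spread between these libraries.

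EGFR, ERBB2 and ERBB3 are receptors of the cell surface that work in pairs. Ligands such as amphiregulin, epiregulin, HB-EGF and TGF-alpha are made as membrane-anchored precursors, are released by proteases called sheddases, and bind EGFR, after which the RAS-ERK and PI3K pathways are activated. ERBB2 has no known soluble ligand and acts as a partner, ERBB3 has little kinase activity of its own and binds neuregulins, and ERRFI1 (also called MIG6) is a feedback inhibitor that binds the kinase domain of the receptors. In the epidermis this system is known for driving keratinocyte proliferation, migration and wound closure, with amphiregulin, HB-EGF and TGF-alpha acting on the same cells that make them.

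Before the results, 2 properties of the libraries bear on every value. *ATF7* itself was at 50.6, 46.4 and 52.2 CPM (counts-per-million, scaled by the TMM method) in the LV-NC-labeled libraries and at 21.9, 25.7 and 28.0 CPM in the LV-*ATF7*-labeled ones. It was thus lower where the labels place the overexpression (log2 fold change -0.98, standard error 0.12, adjusted p = 0.000189 by edgeR's quasi-likelihood test, adjusted by Benjamini-Hochberg over all genes tested). How reads of the lentiviral coding sequence were counted is not given in the sources used here, the study's qRT-PCR and Western blot checks of *ATF7* in infected cells were not analyzed here, the labels were kept as deposited, and each direction below rests on labels that *ATF7* goes against. In addition, LV-NC replicate 1 stood apart from LV-NC replicates 2 and 3. Its log2 CPM correlated with theirs across genes, which are not independent replicates, at 0.967 and 0.969, against 0.994 between replicates 2 and 3, and 23.5% of genes were at least 1.5-fold apart between it and their mean. Total counts ran from 16686472 to 20562768 per library. Of 14 keratinocyte markers, all 14 had a row, with a summed level of 2558.0 to 3397.9 CPM in the LV-NC-labeled libraries and 8617.5 to 9360.4 CPM in the LV-*ATF7*-labeled ones, where 9 were called higher and 2 lower. *KRT14*, a defining basal keratin, was low throughout, at 8.06 ± 6.69 and 1.55 ± 0.24 CPM (SD, n = 3). In LV-NC replicate 1 it was at 0.375 CPM. Fibroblast markers with a row (3 of 7) summed to 33.1 to 42.7 CPM and 17.3 to 21.7 CPM in the same order of groups, melanocyte markers (1 of 4) to 1.87 to 2.20 and 3.42 to 6.03 CPM, leukocyte markers (2 of 5, without *PTPRC*) to 2.25 to 5.92 and 8.93 to 11.9 CPM, and endothelial markers (2 of 3) to 1.12 to 5.50 and 84.6 to 89.9 CPM, nearly all of it *CDH5* in the second group. Suprabasal markers (3 of 5) summed to 152.7 to 450.6 and 5460.5 to 5915.2 CPM, nearly all of it *KRT13* in the LV-*ATF7*-labeled libraries, while the other suprabasal markers with a row fell (log2 fold change -0.55 for *KRT10* and -2.11 for *IVL*). The part of these marker differences, and of LV-NC replicate 1, in the results below was not tested except where a value without that library is given. In bulk RNA, a change in the share of cells of a kind and a change in RNA per cell cannot be told apart.

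The genes lie at separate places in the genome (GRCh38, GENCODE release 29, positions matched by gene identifier), except that *EREG* (ENSG00000124882, chr4:74365143-74388751) and *AREG* (ENSG00000109321, chr4:74445134-74455009) are 56.4 kb apart on the plus strand of chromosome 4. *EGFR* (ENSG00000146648) is at chr7:55019021-55211628, *ERBB2* (ENSG00000141736) at chr17:39687914-39730426 and *ERBB3* (ENSG00000065361) at chr12:56076799-56103505, all on the plus strand. *HBEGF* (ENSG00000113070, chr5:140332843-140346631), *TGFA* (ENSG00000163235, chr2:70447280-70554193) and *ERRFI1* (ENSG00000116285, chr1:8004404-8026308) are on the minus strand. RefSeq promoter sequences (GRCh38.p14, 250 bases before the start and 50 after it) were at hand for 7 of the 8 genes, in 9 windows, and none was matched for *ERBB3*. They were searched on both strands for TGACGTCA, the cAMP response element that ATF/CREB factors are known to bind. Its shorter form TGACG, which also lies inside TGACGTCA, was searched too, as was TGANTCA. The pattern TGANTCA takes in the AP-1 element (TGACTCA or TGAGTCA) but also allows A or T as its middle base. The 250 bases before the start are shown for the gene whose RNA rose most and the 2 whose RNA fell most, with matches in capitals. They are *AREG* (chr4:74444886-74445135, plus strand), *ERRFI1* (chr1:8026310-8026559, minus strand) and the window of *EGFR* (chr7:55018767-55019016, plus strand) that precedes its annotated start, each printed 5′ to 3′.
AREG: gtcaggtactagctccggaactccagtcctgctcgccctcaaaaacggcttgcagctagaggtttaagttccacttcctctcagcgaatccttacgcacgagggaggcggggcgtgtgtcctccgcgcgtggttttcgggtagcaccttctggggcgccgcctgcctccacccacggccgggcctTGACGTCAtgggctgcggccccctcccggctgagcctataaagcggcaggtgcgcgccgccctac
ERRFI1: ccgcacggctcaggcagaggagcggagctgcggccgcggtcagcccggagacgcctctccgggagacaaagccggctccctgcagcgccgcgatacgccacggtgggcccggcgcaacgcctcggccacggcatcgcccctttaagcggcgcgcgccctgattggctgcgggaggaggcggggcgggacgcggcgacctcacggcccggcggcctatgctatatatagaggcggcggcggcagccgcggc
EGFR: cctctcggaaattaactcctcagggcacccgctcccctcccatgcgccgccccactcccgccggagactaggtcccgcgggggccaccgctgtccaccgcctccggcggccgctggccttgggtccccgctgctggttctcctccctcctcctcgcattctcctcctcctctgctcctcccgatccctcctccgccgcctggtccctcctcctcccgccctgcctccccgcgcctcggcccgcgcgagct
The *AREG* window held TGACGTCA, beginning 65 bases before the start, a motif found in 1.85% of the 35116 promoter windows of the same length. No other window of these genes held it. The windows of *ERRFI1* and *HBEGF* and the *EGFR* window shown held none of the 3 motifs. TGANTCA, present in 7.71% of all windows, was found in the *ERBB2* window and at 2 places in the other *EGFR* window (chr7:55109589-55109838), and TGACG, present in 24.6%, in the *EREG* window and in 1 of the 2 windows of *TGFA*. A match describes letters in a window and does not show that a factor binds there.

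By the labels, 2 of the 3 receptors rose in the LV-*ATF7*-labeled libraries, and 2 of the 4 ligands and the inhibitor fell. *EGFR* and *ERBB2* rose, *AREG*, *TGFA* and *ERRFI1* fell, and *ERBB3*, *EREG* and *HBEGF* did not pass the test. Thus 5 of 8 genes had an adjusted p under 0.05, against 67.6% of all genes tested, 2 higher (34.7% of all genes) and 3 lower (32.9% of all genes). The same 5 had groups that did not overlap, against 72.7% of all genes, and a fold change of at least 1.5, against 52.9%. A count of 5 of 8 is therefore near the background of this comparison, and what follows is about the size and the direction of each gene. The median size of the log2 fold change was 0.79 over the 8 genes and 0.67 over all genes tested.

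*EGFR*, the receptor that binds all 4 of these ligands, had the largest change of the 8 genes. It was at 418.6, 263.3 and 299.3 CPM in LV-NC replicates 1, 2 and 3 and at 1687.3, 1720.0 and 1589.5 CPM in LV-*ATF7* replicates 1, 2 and 3. The groups were far apart, and LV-NC replicate 1 was the highest of the control libraries. The means were 327.1 ± 81.3 and 1665.6 ± 67.9 CPM (SD, n = 3), a 5.09-fold rise (95% interval 3.82 to 6.78, adjusted p = 1.73e-05 by edgeR's quasi-likelihood test, adjusted by Benjamini-Hochberg over all genes tested). On the log2 scale the change was 2.35 with a standard error of 0.18, at percentile 94.2 of the log2 fold changes of all genes tested. Without LV-NC replicate 1, which was 1.49-fold above the mean of replicates 2 and 3 for this gene, the log2 fold change was 2.55. An antisense gene, *EGFR-AS1*, covers 1.49% of the exon bases of *EGFR*, and whether the counting used the strand is not given in the sources used here.

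*ERBB2*, the partner receptor without a soluble ligand of its own, was at 185.6, 159.7 and 171.1 CPM in the LV-NC-labeled libraries and at 270.4, 285.0 and 308.3 CPM in the LV-*ATF7*-labeled ones. All 3 libraries labeled LV-*ATF7* were above the highest control library. The means were 172.1 ± 13.0 and 287.9 ± 19.1 CPM (SD, n = 3), a 1.67-fold rise (95% interval 1.43 to 1.96, adjusted p = 0.000285 by edgeR's quasi-likelihood test). Genes on the opposite strand, *MIEN1* and *PGAP3*, share 7.41% of the exon bases of *ERBB2*. *MIEN1* fell from 31.6 ± 4.16 to 18.9 ± 0.343 CPM (SD, n = 3, adjusted p = 0.00121 by edgeR's quasi-likelihood test), and *PGAP3* was at 31.6 ± 5.27 and 39.2 ± 6.42 CPM (adjusted p = 0.126).

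*ERBB3*, the neuregulin receptor that signals mostly through its partners, was at 112.8, 74.1 and 79.7 CPM in the LV-NC-labeled libraries and at 107.5, 103.1 and 111.6 CPM in the LV-*ATF7*-labeled ones. The groups overlapped through LV-NC replicate 1, the highest of all 6 libraries, while replicates 2 and 3 lay below every LV-*ATF7*-labeled library. With all 6 libraries the log2 fold change was 0.27 (95% interval -0.09 to 0.64, adjusted p = 0.157 by edgeR's quasi-likelihood test), and a rise of up to 1.56-fold lies inside that interval. Without LV-NC replicate 1 it was 0.46 (95% interval 0.30 to 0.62, adjusted p = 7.48e-06), where 80.1% of all genes passed the test, and by limma voom with quality weights per library it was 0.43 (adjusted p = 4.27e-06), where 83.4% passed. That fit kept all 6 libraries and gave LV-NC replicate 1 a weight of 0.0948, against 0.577 to 3.66 for the others.

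**Figure D1:**
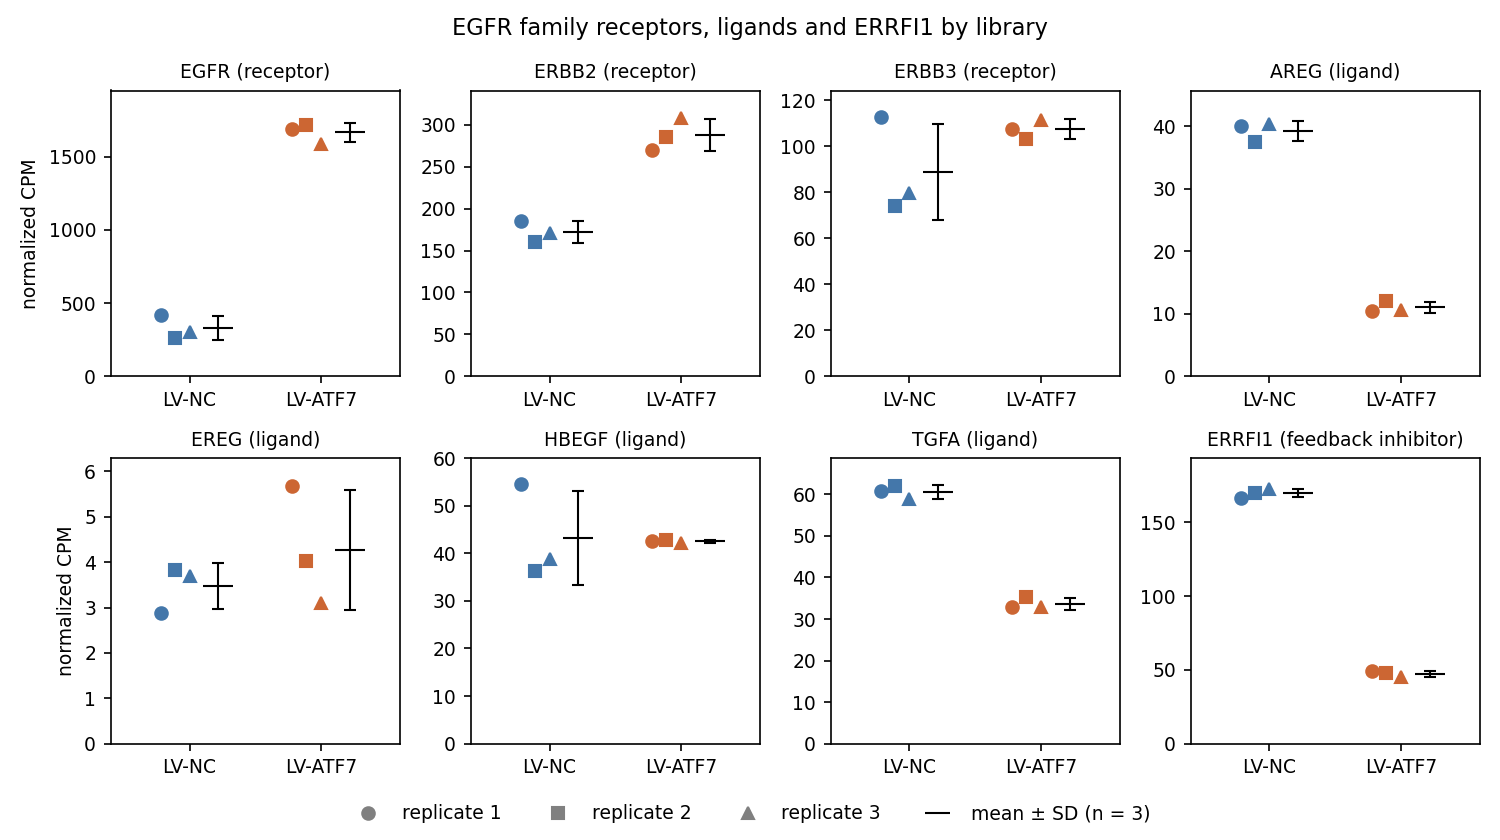
Normalized CPM (vertical axes, linear from 0, a separate scale for each gene) of each member in the LV-NC group (blue, 3 libraries) and the LV-*ATF7* group (orange, 3 libraries), with the replicate number given by the marker and the mean ± SD (n = 3) in black. The groups are apart for *EGFR*, *ERBB2*, *AREG*, *TGFA* and *ERRFI1*, and LV-NC replicate 1 lies above the other control libraries for *EGFR*, *ERBB2*, *ERBB3* and *HBEGF*.

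Among the ligands, *AREG* and *TGFA* fell while *EREG* and *HBEGF* did not pass the test. *AREG* encodes amphiregulin, an abundant autocrine ligand of cultured keratinocytes. It was at 40.0, 37.4 and 40.3 CPM in the LV-NC-labeled libraries and at 10.5, 12 and 10.6 CPM in the LV-*ATF7*-labeled ones, with little spread inside either group and no overlap. The means of 39.2 ± 1.57 and 11.0 ± 0.868 CPM (SD, n = 3) made it 3.55-fold lower (95% interval 2.96 to 4.27, adjusted p = 7.29e-06 by edgeR's quasi-likelihood test). Its log2 fold change was -1.83 with a standard error of 0.11, and LV-NC replicate 1 was 1.03 times the mean of the other control libraries. This is the gene whose promoter window, printed above, held TGACGTCA.

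*TGFA*, which encodes TGF-alpha, was at 60.8, 62.1 and 58.8 CPM in the LV-NC-labeled libraries and at 32.9, 35.4 and 32.9 CPM in the LV-*ATF7*-labeled ones. Every control library was above every library of the other group. The means were 60.5 ± 1.67 and 33.7 ± 1.42 CPM (SD, n = 3), a 1.79-fold lower level (95% interval 1.56 to 2.07, adjusted p = 8.52e-05 by edgeR's quasi-likelihood test), and LV-NC replicate 1 was 1.01 times the mean of the other control libraries.

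*HBEGF* encodes heparin-binding EGF-like growth factor, which keratinocytes are known to release at wound edges. It was at 54.5, 36.3 and 38.8 CPM in the LV-NC-labeled libraries and at 42.6, 42.7 and 42.2 CPM in the LV-*ATF7*-labeled ones. The libraries labeled LV-*ATF7* were nearly equal and lay between LV-NC replicate 1 and LV-NC replicates 2 and 3. The fold was 0.983 (95% interval 0.766 to 1.26, adjusted p = 0.898 by edgeR's quasi-likelihood test), so a fold as low or as high as those bounds is not excluded. Without LV-NC replicate 1 the sign turned, to a log2 fold change of 0.16 (adjusted p = 0.109), and by limma voom with quality weights per library it was 0.165 (adjusted p = 0.0449).

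*EREG*, which encodes epiregulin and is the neighbor of *AREG* on chromosome 4, had few reads, 54 to 102 per library. It was at 2.89, 3.83 and 3.70 CPM in the LV-NC-labeled libraries and at 5.69, 4.03 and 3.10 CPM in the LV-*ATF7*-labeled ones. The groups overlapped, and LV-*ATF7* replicates 1 and 3 were the highest and the second lowest of the 6 libraries. The log2 fold change was 0.30 (95% interval -0.31 to 0.90, adjusted p = 0.338 by edgeR's quasi-likelihood test), and at this depth a rise of up to 1.87-fold or a fold as low as 0.809 lies inside the interval.

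*ERRFI1*, the inhibitor that binds the kinase domain of these receptors, was at 166.7, 170.1 and 172.6 CPM in the LV-NC-labeled libraries and at 49.0, 48.1 and 45.2 CPM in the LV-*ATF7*-labeled ones. It had the smallest relative spread of the 8 genes among the control libraries, LV-NC replicate 1 included, and the groups were far apart. The means were 169.8 ± 2.96 and 47.4 ± 2.0 CPM (SD, n = 3), a 3.58-fold lower level (95% interval 3.12 to 4.10, adjusted p = 2.14e-06 by edgeR's quasi-likelihood test). *EGFR* and *ERRFI1* thus moved in opposite directions, as did *EGFR* and its ligands *AREG* and *TGFA*. An antisense gene covers 3.70% of the exon bases of *ERRFI1*.

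**Figure D2:**
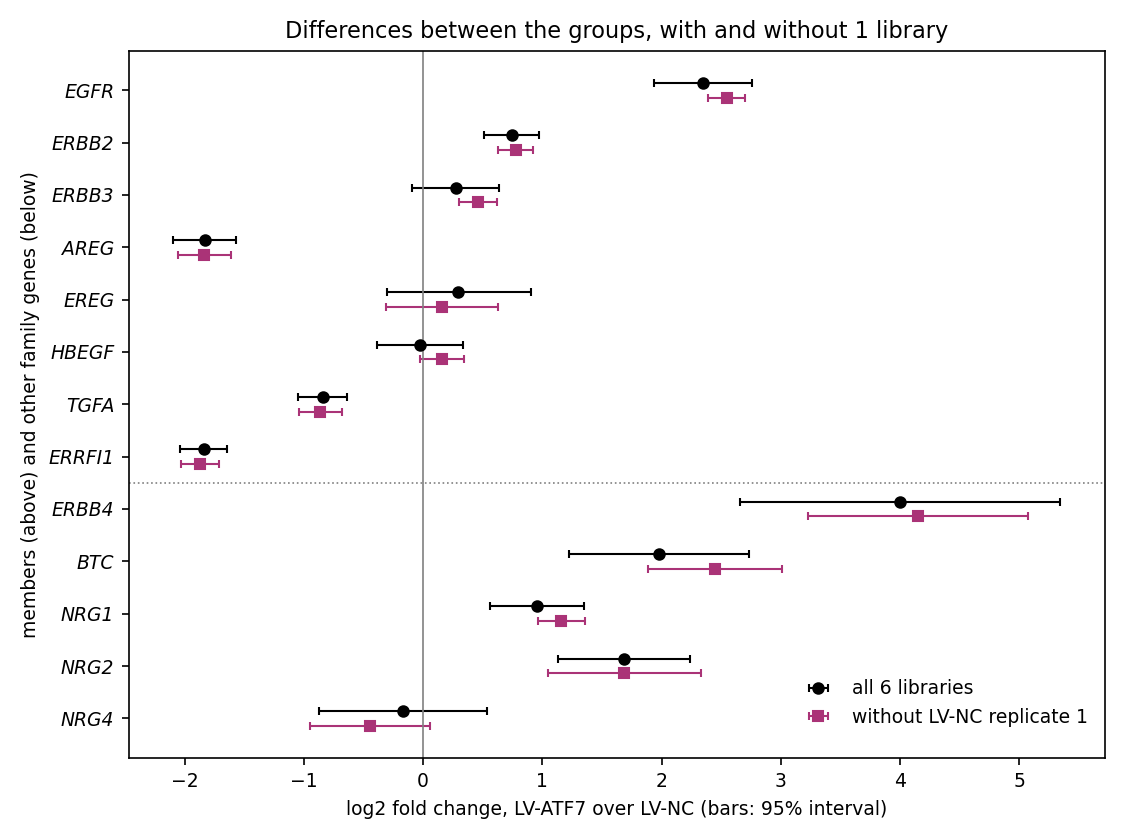
Log2 ratio, LV-*ATF7* to LV-NC, (horizontal axis, bars are 95% intervals) for the 8 genes above the dotted line and for 5 other family genes below it, from all 6 libraries (black circles) and without LV-NC replicate 1 (purple squares). Leaving that library out moved *ERBB3* from 0.27 to 0.46 with an interval clear of 0 and turned the sign of *HBEGF*, and it left the other members on the same side of 0.

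To compare levels between genes, counts were divided by the length of each gene's exons, each base counted once, and scaled to the same total in every library (transcripts-per-million, TPM). In the LV-NC-labeled libraries the order of levels was *ERRFI1* at 177.9 ± 6.58 TPM, *EGFR* at 115.6 ± 35.2, *AREG* at 104.6 ± 8.18, *ERBB2* at 73.4 ± 9.27, *HBEGF* at 63.4 ± 18.0, *TGFA* at 53.5 ± 3.33, *ERBB3* at 43.5 ± 12.7 and *EREG* at 2.65 ± 0.263 TPM (SD, n = 3). In these libraries the ranges of *EGFR* and *AREG* overlapped, as did those of *ERBB2* and *HBEGF*, of *HBEGF* and *TGFA*, and of *TGFA* and *ERBB3*. In the LV-*ATF7*-labeled libraries the order was *EGFR* at 490.2 ± 36.7 TPM, *ERBB2* at 102.5 ± 3.51, *HBEGF* at 51.9 ± 2.17, *ERBB3* at 43.7 ± 1.0, *ERRFI1* at 41.7 ± 3.20, *TGFA* at 25.0 ± 1.66, *AREG* at 24.7 ± 2.45 and *EREG* at 2.77 ± 0.925 TPM (SD, n = 3). Here the ranges of *ERBB3* and *ERRFI1* and those of *TGFA* and *AREG* overlapped. *ERRFI1* was the highest of the 8 genes in every library labeled LV-NC, and *EGFR* was the highest in every LV-*ATF7*-labeled library. The places in between depend on the length used: with the deposited FPKM values 3 of 8 genes kept their place in each group, and with the longest annotated transcript 3 kept it in the LV-NC group and 4 in the LV-*ATF7* group.

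The makeup of receptor and ligand RNA was described on the same per-length scale, a description chosen after the values were seen. *EGFR* made up 52.3%, 47.0% and 48.5% of the summed TPM of the 3 receptors in the LV-NC-labeled libraries and 78.0%, 77.9% and 75.0% in the LV-*ATF7*-labeled ones. *ERBB2* went from 32.1% ± 3.48 to 16.2% ± 1.32 of that sum and *ERBB3* from 18.6% ± 0.853 to 6.88% ± 0.417 (SD, n = 3), although *ERBB2* itself rose, because *EGFR* rose more. The ratio of *EGFR* to *ERBB2* was 1.55 ± 0.268 and 4.79 ± 0.475 in the same order of groups. Its value depends on the length used, at 0.946 ± 0.163 and 2.92 ± 0.289 with the longest annotated transcript. Among the 4 ligands, *AREG* held 44.1%, 47.4% and 49.1% of the summed TPM in the LV-NC-labeled libraries and 22.7%, 24.9% and 23.3% in the LV-*ATF7*-labeled ones. *HBEGF* took 27.9% ± 4.24 and 49.8% ± 1.26, *TGFA* 24.0% ± 1.95 and 24.0% ± 0.37, and *EREG* 1.21% ± 0.253 and 2.64% ± 0.814 (SD, n = 3). The sum of the 4 ligands was 256.5, 204.0 and 211.9 TPM in the LV-NC-labeled libraries and 105.8, 109.8 and 97.3 TPM in the LV-*ATF7*-labeled ones, with no overlap. *AREG* was thus the leading ligand by level in the control libraries, and *HBEGF*, which did not pass the test, led in the others because *AREG* and *TGFA* fell.

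**Figure D3:**
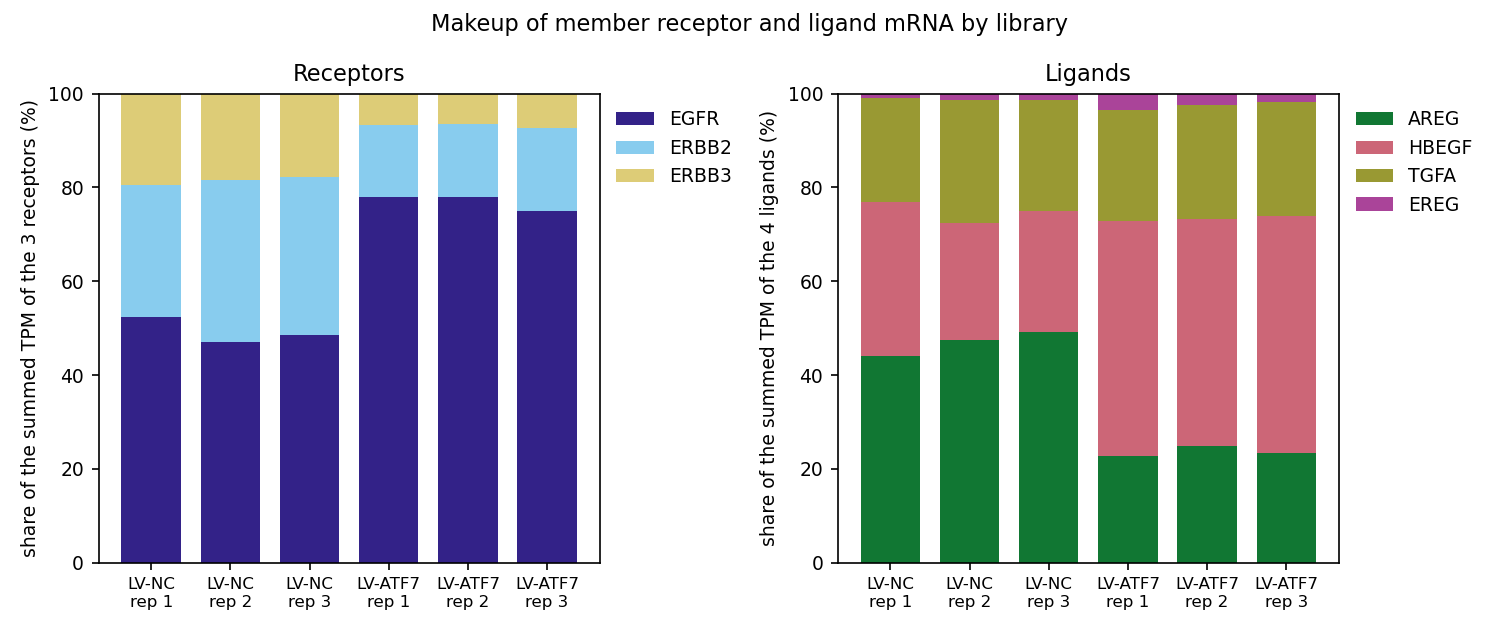
Share (%) of the summed TPM of the 3 receptors (left) and the 4 ligands (right) held by each gene, one stacked bar per library. *EGFR* goes from 47.0% to 52.3% of receptor RNA in the LV-NC-labeled libraries to 75.0% to 78.0% in the LV-*ATF7*-labeled ones, and *AREG* from 44.1% to 49.1% of ligand RNA to 22.7% to 24.9%.

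Other receptors and ligands of the family were read beside the 34.7% of all genes called higher. Of 5 tested, 4 were higher and *NRG4*, a neuregulin, did not pass the test (2.35 ± 0.785 and 2.09 ± 0.317 CPM, SD, n = 3, adjusted p = 0.640 by edgeR's quasi-likelihood test). *EGF*, *EPGN* and *NRG3* had no row under these symbols and were not analyzed here. No gene of the deposited table had fewer than 51 counts summed over the 6 libraries. The reads of *ERBB4* and of *NRG2* in the LV-NC-labeled libraries alone stay below that sum, so their rows depend on the other group. The count of 4 higher of 5 is therefore not read as a result about the family. *ERBB4*, the remaining receptor of the family, had 7, 0 and 10 reads in the LV-NC-labeled libraries and 104, 109 and 70 in the LV-*ATF7*-labeled ones. Its log2 fold change was 4.0 (95% interval 2.66 to 5.34, adjusted p = 0.000469), from a level close to the limit of counting, with 1 control library at 0. It was 3.37 without LV-NC replicate 2, 4.69 without LV-NC replicate 3 and 5.14 by limma voom, and it passed the threshold in each. *BTC*, the ligand betacellulin, was at 1.87, 0.734 and 0.984 CPM in the LV-NC-labeled libraries and at 5.14, 4.84 and 4.26 CPM in the LV-*ATF7*-labeled ones (log2 fold change 1.98, standard error 0.33, adjusted p = 0.000938). It rose although *AREG*, 289.8 kb away on chromosome 4, fell. *NRG1*, the neuregulin that binds ERBB3 and ERBB4, was at 38.3, 25.9 and 24.8 CPM and then at 60.0, 54.6 and 58.0 CPM (log2 fold change 0.95, standard error 0.17, adjusted p = 0.00136). *NRG2* rose from 0.781 ± 0.0258 to 2.53 ± 0.267 CPM (SD, n = 3, log2 fold change 1.69, adjusted p = 0.000419). All these adjusted p-values are from edgeR's quasi-likelihood test.

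Ligand release depends on sheddases, and of 10 sheddases and partners 5 were higher, 1 was lower and 4 did not pass the test (60.0% called, against 67.6% of all genes), with a median log2 fold change of 0.37 against 0.00 over all genes. *ADAM17*, the main sheddase of amphiregulin and TGF-alpha, was at 84.3, 76.1 and 80.5 CPM in the LV-NC-labeled libraries and at 78.1, 83.4 and 75.9 CPM in the LV-*ATF7*-labeled ones (adjusted p = 0.856 by edgeR's quasi-likelihood test). It was named for its role, outside the rule for named genes. *TIMP3*, an inhibitor of ADAM17, rose from 12.8 ± 0.484 to 176.5 ± 5.92 CPM (SD, n = 3, log2 fold change 3.78, adjusted p = 5.64e-07). *RHBDF1*, an inactive rhomboid that guides ADAM17 to the cell surface, rose from 29.2 ± 3.89 to 109.5 ± 8.83 CPM (log2 fold change 1.91, adjusted p = 9.12e-06). The metalloprotease *ADAM9* fell from 165.2 ± 3.42 to 103.6 ± 11.3 CPM (log2 fold change -0.67, adjusted p = 0.000557). *ADAM12*, with 1 to 2 reads in each LV-NC-labeled library and too few reads for the rule, was at least 11.9-fold higher, a lower bound taken against 3 counts. It has a row only through its reads in the LV-*ATF7*-labeled libraries, since the lowest sum of counts in the deposited table was 51. The listed partners *RHBDF2* (log2 fold change 0.25, adjusted p = 0.111 by edgeR's quasi-likelihood test) and *FRMD8* (log2 fold change 0.52, adjusted p = 0.0885) did not pass with all 6 libraries. Thus *TIMP3*, an inhibitor of ADAM17, and *RHBDF1*, a helper of it, rose, and no transcript change of *ADAM17* itself passed the test.

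Genes listed as brakes on the receptors, other than *ERRFI1*, went both ways. The list was written from general knowledge and may mix roles. Whether each gene acts as a brake, in these cells or elsewhere, was not tested. Its counts are therefore not read as more or less braking. Of 17 genes, 7 were higher, 5 were lower and 5 did not pass the test (70.6% called, against 67.6% of all genes), with a median log2 fold change of 0.10. *CAV1*, the caveolae protein caveolin-1, rose from 49.9 ± 2.99 to 232.6 ± 12.2 CPM (SD, n = 3, log2 fold change 2.22, adjusted p = 1.62e-06 by edgeR's quasi-likelihood test). *CBLC*, a ubiquitin ligase of the CBL family, rose from 12.1 ± 1.75 to 53.1 ± 4.26 CPM (log2 fold change 2.13, adjusted p = 8.26e-06). The other listed genes of that family fell. *CBL* went from 184.2 ± 19.9 to 114.8 ± 1.61 CPM (log2 fold change -0.68, adjusted p = 0.000538 by the same test). *CBLB* went from 44.1 ± 9.48 to 27.9 ± 1.45 CPM (log2 fold change -0.66, adjusted p = 0.00606). *UBASH3B*, a phosphatase that binds CBL, fell from 35.7 ± 1.63 to 16.7 ± 0.17 CPM (log2 fold change -1.10, adjusted p = 4.62e-05), and the tyrosine phosphatase *PTPN1* fell from 214.6 ± 10.9 to 104.2 ± 5.04 CPM (log2 fold change -1.04, adjusted p = 2.71e-05).

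Downstream of the receptors, 7 of 27 adaptors and effectors were higher, 7 were lower and 13 did not pass the test (51.9% called, against 67.6% of all genes), with a median log2 fold change of 0.08. *PIK3R2* had no row under this symbol and was not analyzed here. *MAPK3*, which encodes the kinase ERK1, rose from 9.90 ± 2.23 to 65.8 ± 2.85 CPM (SD, n = 3, log2 fold change 2.73, adjusted p = 5.93e-06 by edgeR's quasi-likelihood test), and the kinase *SRC* rose from 150.8 ± 33.2 to 246.2 ± 21.2 CPM (log2 fold change 0.71, adjusted p = 0.00432). *GRB2*, the adaptor that links the receptors to RAS, fell from 426.1 ± 50.4 to 184.4 ± 8.77 CPM (log2 fold change -1.21, adjusted p = 4.56e-05). *PIK3R1*, a regulatory subunit of PI3K, fell from 121.1 ± 10.1 to 41.2 ± 3.89 CPM (log2 fold change -1.55, adjusted p = 1.30e-05).

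Of 22 genes that ERK signaling is known to induce, 6 were higher, 8 were lower and 8 did not pass the test (63.6% called, against 67.6% of all genes), with a median log2 fold change of -0.21. *MYC* was at 209.6, 152.9 and 152.8 CPM and then at 791.6, 795.1 and 810.4 CPM (log2 fold change 2.22, adjusted p = 8.27e-06 by edgeR's quasi-likelihood test), and *DUSP4*, a phosphatase of ERK, rose from 9.73 ± 1.52 to 34.1 ± 0.845 CPM (SD, n = 3, log2 fold change 1.81, adjusted p = 2.01e-05). *PLAUR*, the urokinase receptor, was at 48.8, 106.3 and 107.8 CPM in the LV-NC-labeled libraries and at 6.48, 8.31 and 10.9 CPM in the LV-*ATF7*-labeled ones (log2 fold change -3.35, adjusted p = 7.04e-05). The transcription factor *ETV5* was at 136.7, 241.0 and 248.5 CPM and then at 20.6, 20.8 and 20.1 CPM (log2 fold change -3.35, adjusted p = 1.09e-05). LV-NC replicate 1 was the lowest control library for both, and every control library stayed far above the LV-*ATF7*-labeled libraries.

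**Figure D4:**
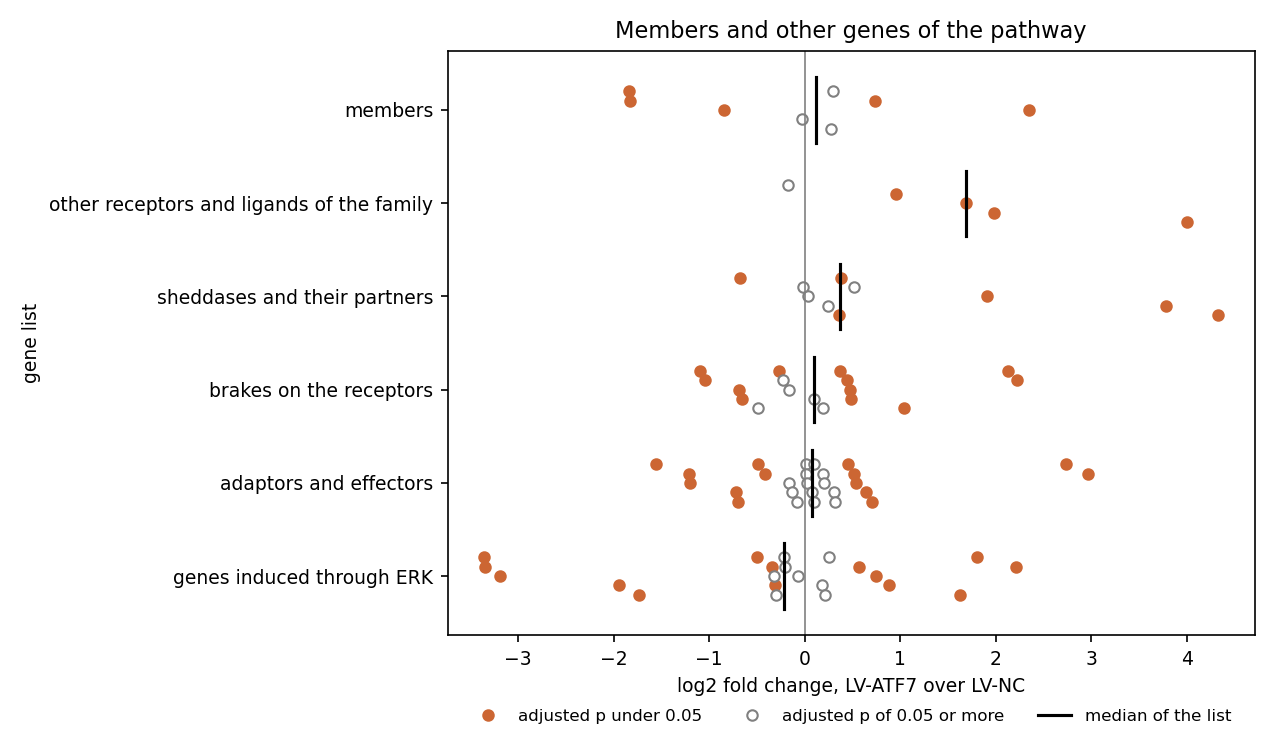
Log2 ratio, LV-*ATF7* to LV-NC, (horizontal axis) for each gene of the 8 members and of 5 lists from the same pathway (rows), filled where the adjusted p was under 0.05 and open otherwise, with the median of each row as a black bar (*ADAM12*, with few reads, is the highest sheddase point and is drawn at its fitted value). Genes lie on both sides of 0 in every row, and in the row of other receptors and ligands only *NRG4* lies below 0.

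The nearest tested genes around *EGFR*, 2 on each side, differed in direction, a description added after its value was seen. *COBL*, 3702.2 kb before it, rose from 9.43 ± 3.14 to 19.4 ± 1.76 CPM (SD, n = 3, log2 fold change 1.04, adjusted p = 0.00405 by edgeR's quasi-likelihood test). *SEC61G*, 259.0 kb before it, fell from 119.8 ± 3.38 to 48.6 ± 1.69 CPM (SD, n = 3, log2 fold change -1.30, adjusted p = 8.78e-06 by edgeR's quasi-likelihood test). *LANCL2*, 153.8 kb after it, was at 68.3 ± 22.5 and 55.3 ± 2.29 CPM (log2 fold change -0.30, adjusted p = 0.266), and *VOPP1*, the next gene, rose with a log2 fold change of 0.29 (adjusted p = 0.0192). Around *ERBB2*, *GRB7* rose (log2 fold change 0.45, adjusted p = 0.00589), *TCAP* fell (log2 fold change -3.05, adjusted p = 0.000186), and *MIEN1* and *PGAP3* are given above.

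Genes whose pattern over the 6 libraries was most like that of *EGFR* and of *TGFA*, the ligand with the highest mean CPM, were found among 11168 other genes averaging 50 counts or more. Likeness was measured as the root mean square difference in log2 CPM after each gene was centered on its own mean. For *EGFR* the closest were *TRIB2* (0.053), *PPARA* (0.057) and *DRAM1* (0.064), which went from 9.64 ± 2.63 to 48.3 ± 1.68, from 7.35 ± 2.06 to 35.3 ± 1.13 and from 66.4 ± 13.1 to 355.0 ± 7.41 CPM (SD, n = 3). For *TGFA* they were *PREPL* (0.039), *CDK7* (0.044) and *APLP2* (0.045), which had log2 fold changes of -0.82, -0.80 and -0.80. These are descriptions over 6 libraries that fall into 2 groups, and many genes of this comparison share the step between the groups.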

How the data were processed

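Total RNA from HaCaT cells was enriched for poly(A) mRNA, made into cDNA and sequenced. The authors deposited a table of 12499 genes with unnormalized read counts for 6 libraries, beside FPKM values. The FPKM values were used to describe levels per length and to derive the gene length they imply, and in no test. The authors' own comparison, given as a ratio or fold, a log2 fold change and p-values per gene, was not used. The submitters' processing notes name GRCh38. The aligner, counting program, annotation and strandedness are not given in the sources used here. Each column of counts or FPKM was assigned to its sample by name (0 without one), and 33 genes had a blank symbol and were kept under their identifiers.

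TMM factors and the quasi-likelihood test of edgeR 4.0.16 (glmQLFit, glmQLFTest; R 4.3.3) were applied to the counts, without covariates, over the 12462 genes that passed filterByExpr, with Benjamini-Hochberg adjustment and a threshold of 0.05, and 37 genes were left out. A list is described by its counts and its median, with no test of the list. The genes, the lists and the markers were chosen with earlier results of these data known. Named genes were all 8 members, *ATF7*, each other receptor or ligand with a row, and in each other list the 2 largest rises and 2 largest falls among called genes with at least 50 mean counts and no overlap between groups, plus the 3 genes of most like pattern. *ADAM17*, *RHBDF2*, *FRMD8*, *CBL*, *CBLB*, the chromosomal neighbors, the genes overlapping *ERBB2* and the markers were named outside that rule. Gene positions and exon lengths are from GENCODE release 29, where 12485 identifiers were found, and the length implied by the deposited FPKM values was 2.61 times the exons counted once (median over genes). A log2 CPM used a prior count of 2. Alternatives were limma 3.58.1 (voom with quality weights per library), DESeq2 1.42.0, scaling by upper quartile or by library size only, no filter or a minimum of 10 counts in every library, a block on the replicate number, leaving out each library, and a fold of at least 1.5. The steps were tested on simulated data in which far fewer genes differed than were called here. That run does not show how the steps behave when most genes differ. Python 3.11.15 was also used. With 16686472 to 20562768 counts per library, counting error weighs most on genes of few reads such as *EREG* and *ERBB4*. What part of the spread between libraries it makes up for the other genes was not tested.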

Additional observations from a re-analysis of the deposited data

How the results depend on the processing

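*EGFR*, *ERBB2*, *AREG*, *TGFA* and *ERRFI1* were called in the same direction in all 13 alternative fits, and *EREG* passed in none. *ERBB3* passed in 2: its log2 fold change was 0.432 with limma voom and quality weights per library, and 0.12 to 0.46 with each library left out, past the threshold only without LV-NC replicate 1. The sign of *HBEGF* turned to 0.165 with limma voom and to 0.158 without LV-NC replicate 1, and its log2 fold change ran from -0.17 to 0.16 with each library left out. Limma voom gave that library a weight of 0.0948, against 0.577 to 3.66 for the others. With each library left out, the brakes called were 9 to 15, against 12. The most were called without LV-NC replicate 1, where 80.1% of all genes were called, against 67.6%. The number of members called was 6 without LV-NC replicate 1 (80.1% of all genes) and 7 with limma voom (83.4% of all genes). Over all genes, 7290 to 10011 were called with each library left out, against 8429. The adaptors and effectors called were 22 with limma voom, which called 83.4% of all genes, against 14 with 67.6% of all genes. Relative to exons counted once, 3 members kept their rank in LV-NC with deposited FPKM and 3 with the longest transcript, and in LV-*ATF7* 3 and 4. With scaling by library size only, the median over all genes shifted to -0.164 on the log2 scale, and the share of calls that were higher from 51.3% to 42.4%, with the 5 calls above unchanged. *ERBB4* has no value where at least 10 counts were required in every library. Leaving out a library leaves a group with 2, and spread is then pooled by the fit. Whether the replicate numbers pair the libraries is not given in the sources used here. Deviations from the group means correlated at 0.0583, -0.0209 and 0.0649 for same-numbered libraries and at -0.0731 to 0.0585 for the others. With 3 libraries per group, such values cannot show whether the libraries were paired. With the replicate block, 8210 genes were called, of which 8068 were among the 8429, and no member's call changed (log2 fold change of *EGFR* 2.38).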
